A study of Mus musculus with 4 samples.

Results

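The genes described here build and supply the cilium: 48 listed mouse genes of intraflagellar transport (IFT), the BBSome and its partners, the ciliary motors and the transition zone. They were selected by symbol, from a written list chosen with earlier results of these data known. Of the 48, 47 were present among the 23337 gene rows of the count data. Ift43 was absent under that symbol and was dropped. All 47 passed the filter on low counts (CPM, the counts of a gene scaled to the library total, above 1 in at least 2 of 4 samples), which kept 15438 genes for testing.

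RNA was sequenced from Tomato-positive cells sorted from regenerated olfactory epithelium, 1 mouse per sample. The 2 mutant samples were Lmnb1-/- and the 2 control samples were Lmnb1+/-, so the controls also carried 1 deleted allele, and every mouse carried K5Cre and the Cre-dependent R26 Ai9 Tomato reporter. K5Cre is driven by the Keratin 5 promoter, which within this epithelium is active in horizontal basal cells, a stem cell population. Cre removed Lmnb1 exon 2 in those cells, and their progeny inherited the deletion and Tomato. All mice were of mixed strain and received 50 mg/kg methimazole, a drug that kills olfactory epithelium, followed by 4 weeks of recovery. Experimental group 1 (control 1, mutant 1) and experimental group 2 (control 2, mutant 2) differed in treatment, parents, age and sex, whereas the mice within a group were matched littermates. They are called group 1 and group 2 in what follows. The tissue was mosaic, a minority of Tomato-positive cells can retain lamin B1, and the sort held stem cells, progenitors, neurons and supporting cells together.

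An olfactory sensory neuron carries immotile cilia on its dendritic knob, and these hold the odorant receptors and the whole transduction cascade. Proteins are not made inside a cilium: IFT trains, driven outward by kinesin and back by dynein, carry building blocks along the axoneme, the BBSome moves membrane proteins on those trains, and the transition zone at the base decides what enters. Inherited loss of BBSome or transition zone genes is known to cause loss of smell in mouse and human.

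The libraries held 14833396 to 23704638 counts in genes. Mutant 1 stood apart: 39.4% of its uniquely aligned reads fell outside genes, against 22.1% to 24.9% in the other samples, and only 1603 genes had a count of 0, against 5173 to 6053. An even background estimated for this library made up a median of 1.46% and at most 11.8% of the counts of the 47 genes in it. Lmnb1, the targeted gene, measured 20.6 and 18.8 CPM in control 1 and control 2 and 14.1 and 10.1 CPM in mutant 1 and mutant 2 (adjusted p = 0.195). Its deleted exon is only part of the counted gene. By PCR of other exons of Lmnb1, the paper reported transcript depletion in cells sorted from mutant epithelia. Here the whole-gene counts fell without passing, so they check the labels weakly, and the source of the remaining counts was not tested. Defining markers of mature olfactory neurons were present in every sample, and so were those of the other epithelial cells.

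Of the 47 genes, 12 were lower in Lmnb1-/- cells and 0 were higher at an adjusted p below 0.05 by edgeR's likelihood-ratio test with experimental group as a term. Across all tested genes 4.30% were called lower and 1.28% higher, whereas 25.5% of these genes were called lower. At an unadjusted p below 0.05, 27 were lower and 0 higher, against 9.62% lower and 6.32% higher among all tested genes. The calls comprised 4 of 7 BBSome subunits (Bbs1, Bbs2, Bbs7, Ttc8), all 3 subunits of the heterotrimeric kinesin (Kif3a, Kif3b, Kifap3), and single members of other groups (Ift81, Traf3ip1, Arl6, Wdr34, Ahi1). The fold changes of all 47 genes lay between -0.998 and 0.15 on the log2 scale with a median of -0.47, beside a median of -0.01 over all tested genes, and 45 of the 47 were negative. Together the 47 genes summed to 3273 and 3031 CPM in control 1 and control 2, and to 2509 and 2104 CPM in mutant 1 and mutant 2. The mutant sum was thus 76.6% of its control in group 1 and 69.4% in group 2.

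**Figure D1:**
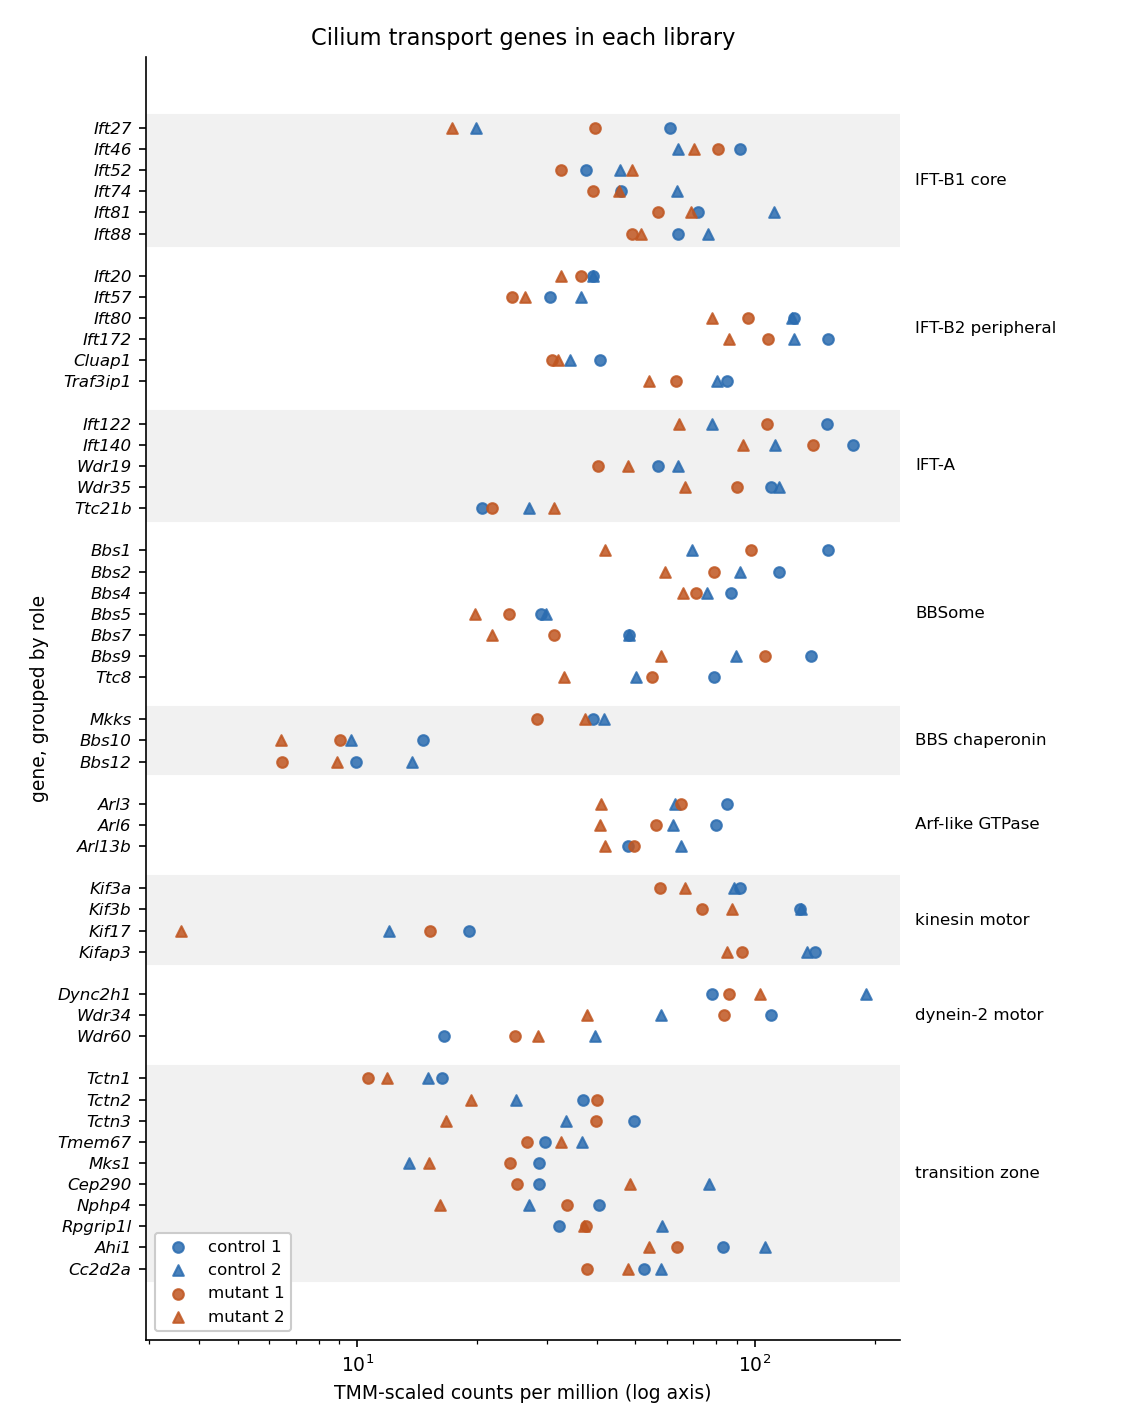
CPM (scaled by the trimmed mean of M values, log axis) of the 47 genes, grouped by role; each symbol is 1 library, blue for control, orange for mutant, circles for group 1 and triangles for group 2. For 25 of the 47 genes both orange symbols lie to the left of both blue symbols.

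The level of both mutants lay below that of both controls for 25 of the 47 genes, a pattern shown by 13.3% of all tested genes, and for 0 of them did both mutants lie above. The ratio of mutant to control was negative on the log2 scale in both experimental groups for 38 genes, against 32.9% of all tested genes, and positive in both for Ttc21b alone. These are counts without a test. In bulk samples, fewer ciliated cells and less of each RNA per cell cannot be told apart.

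The call count depended on the test. The quasi-likelihood test of edgeR called 5 members lower (3.20% of all genes), namely Bbs1, Bbs2, Bbs7, Kif3b and Kifap3, and DESeq2 called those 5 plus Ift172 and Ahi1 (5.79% of all genes with an adjusted p). DESeq2 gave no adjusted p for 4 of the 47 genes (Bbs10, Bbs12, Kif17, Tctn1) or for some comparison genes named below, so it could not call these. Without the term for experimental group, 0 of the 47 genes were called lower, but so were 0 of all 15438 tested genes (0.00%), so this count says nothing about the 47 in particular. In that fit 0 of the 47 and 189 of all genes (1.22%) were lower at an unadjusted p below 0.05. The same fit with any 1 of control 1, control 2, mutant 1 or mutant 2 left out called 0 of the 47 genes lower, and between 0 and 5 of all tested genes. At an unadjusted p below 0.05, 3 of the 47 were lower without mutant 1 and 0 in the other fits.

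The BBSome, an assembly that carries membrane proteins along cilia, held the lowest adjusted p among the 47 genes. Bbs7 (chr3:36573142-36613477, minus strand; gene positions are those of GENCODE M21 on GRCm38) measured 48.1 and 48.3 CPM in control 1 and control 2 and 31.2 and 21.8 CPM in mutant 1 and mutant 2. The controls were nearly equal and both mutants lay below them, with a log2 fold change of -0.88 ± 0.21 (SE, n = 2 per genotype, as for all fold changes here) and an adjusted p of 0.00153. Bbs7 forms part of the core that joins the other subunits. Bbs1 (chr19:4886878-4906628, minus strand), the subunit that binds the GTPase Arl6, measured 153 and 69.3 CPM in the controls and 97.9 and 41.9 CPM in the mutants. The genotypes overlapped, because control 2 lay below mutant 1, yet each mutant lay below its own control by a similar ratio (-0.64 and -0.73 on the log2 scale). Its log2 fold change was -0.68 ± 0.17 with an adjusted p of 0.00377. When control 1 was left out and the experimental group term with it, this value was 0.03.

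Bbs2 (chr8:94067954-94098928, minus strand), a further core subunit, measured 115 and 91.9 CPM in the controls and 79.0 and 59.5 CPM in the mutants. Its genotypes did not overlap, and it was lower by -0.58 ± 0.17 (adjusted p = 0.0196). Ttc8 (chr12:98920574-98983238, plus strand), a subunit built of tetratricopeptide repeats, measured 78.8 and 50.2 CPM in the controls and 55.2 and 33.1 CPM in the mutants. Control 2 lay below mutant 1, and the log2 fold change within experimental groups was -0.56 ± 0.17 (adjusted p = 0.0243). The other subunits did not pass. Bbs4, the member of the complex with the smallest difference, measured 86.9 and 75.7 CPM in the controls and 71.2 and 65.9 CPM in the mutants (-0.24 ± 0.16, adjusted p = 0.502). Bbs9 had a log2 fold change of -0.51 (adjusted p = 0.0740) and Bbs5 one of -0.42 (adjusted p = 0.414). All 7 subunits were negative in both experimental groups, and their medians were -0.51 in group 1 and -0.63 in group 2.

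Mkks, Bbs10 and Bbs12 encode chaperonin-like proteins that help assemble the BBSome. Bbs10 measured 14.6 and 9.62 CPM in the controls and 9.02 and 6.44 CPM in the mutants, a log2 fold change of -0.64 ± 0.40 that did not pass (adjusted p = 0.468). Bbs12 had a fold change of -0.62 (adjusted p = 0.496). Mkks measured 39.1 and 41.7 CPM in the controls and 28.3 and 37.3 CPM in the mutants (-0.31 ± 0.20, adjusted p = 0.486). In each of the 3 both mutants lay below both controls. For Mkks, 29.3% of its exon length overlaps exons of other genes, so its reads can be shared.

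Among the small GTPases, Arl6 (chr16:59612949-59639391, minus strand), which recruits the BBSome to membranes, measured 80.0 and 62.2 CPM in the controls and 56.3 and 40.8 CPM in the mutants. Its genotypes did not overlap, and the log2 fold change was -0.56 ± 0.17 (adjusted p = 0.0214). Arl3, which releases lipid-modified cargo inside the cilium, had a fold change of -0.50 and lay just outside the threshold (adjusted p = 0.0586). Arl13b, the activator of Arl3, measured 48.02 and 65.1 CPM in the controls and 49.5 and 42.0 CPM in the mutants (-0.29 ± 0.20, adjusted p = 0.542). Mutant 1 did not lie below its control for this gene, and mutant 2 did.

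All 3 subunits of the kinesin that drives outward transport fell. Kif3a and Kif3b are its motor subunits and Kifap3 its accessory subunit. Kif3b (chr2:153291413-153333390, plus strand) measured 130 and 130 CPM in the controls and 73.6 and 87.5 CPM in the mutants. The controls were alike and both mutants lay well below them (-0.70 ± 0.18, adjusted p = 0.00469). Kifap3 (chr1:163779583-163917109, plus strand) measured 141 and 135 CPM in the controls and 92.5 and 84.9 CPM in the mutants. Neither its controls nor its mutants differed much within their genotype, and it was lower by -0.64 ± 0.17 (adjusted p = 0.00791). Kif3a (chr11:53567379-53601967, plus strand) measured 91.9 and 88.6 CPM in the controls and 57.8 and 66.9 CPM in the mutants (-0.54 ± 0.16, adjusted p = 0.0253). None of the 3 overlapped between genotypes.

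Kif17, a separate kinesin of the same family that works as a pair of identical chains, measured 19.1 and 12.0 CPM in the controls and 15.2 and 3.59 CPM in the mutants. It had the lowest log2 fold change of the 47 genes (-0.998 ± 0.41) but a wide error and did not pass (adjusted p = 0.171). Its ratio was -0.33 in group 1 and -1.71 in group 2. The return motor, dynein, gave no such common pattern. Wdr34 (chr2:30031546-30048881, minus strand), an intermediate chain, measured 110 and 57.9 CPM in the controls and 83.4 and 37.7 CPM in the mutants. It fell within both experimental groups (-0.50 ± 0.17, adjusted p = 0.0440), although control 2 lay below mutant 1. In fits without the group term its fold change was 0.08 when control 1 was left out and 0.03 when mutant 2 was left out. Dync2h1, the heavy chain that does the mechanical work, measured 77.9 and 190 CPM in the controls and 86.2 and 103 CPM in the mutants (-0.37 ± 0.23, adjusted p = 0.498). Here control 2 stood alone above the other samples. Wdr60, a further intermediate chain, measured 16.5 and 39.7 CPM in the controls and 24.9 and 28.4 CPM in the mutants, so that both mutants lay between the controls (0.05 ± 0.28, adjusted p = 0.974).

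**Figure D2:**
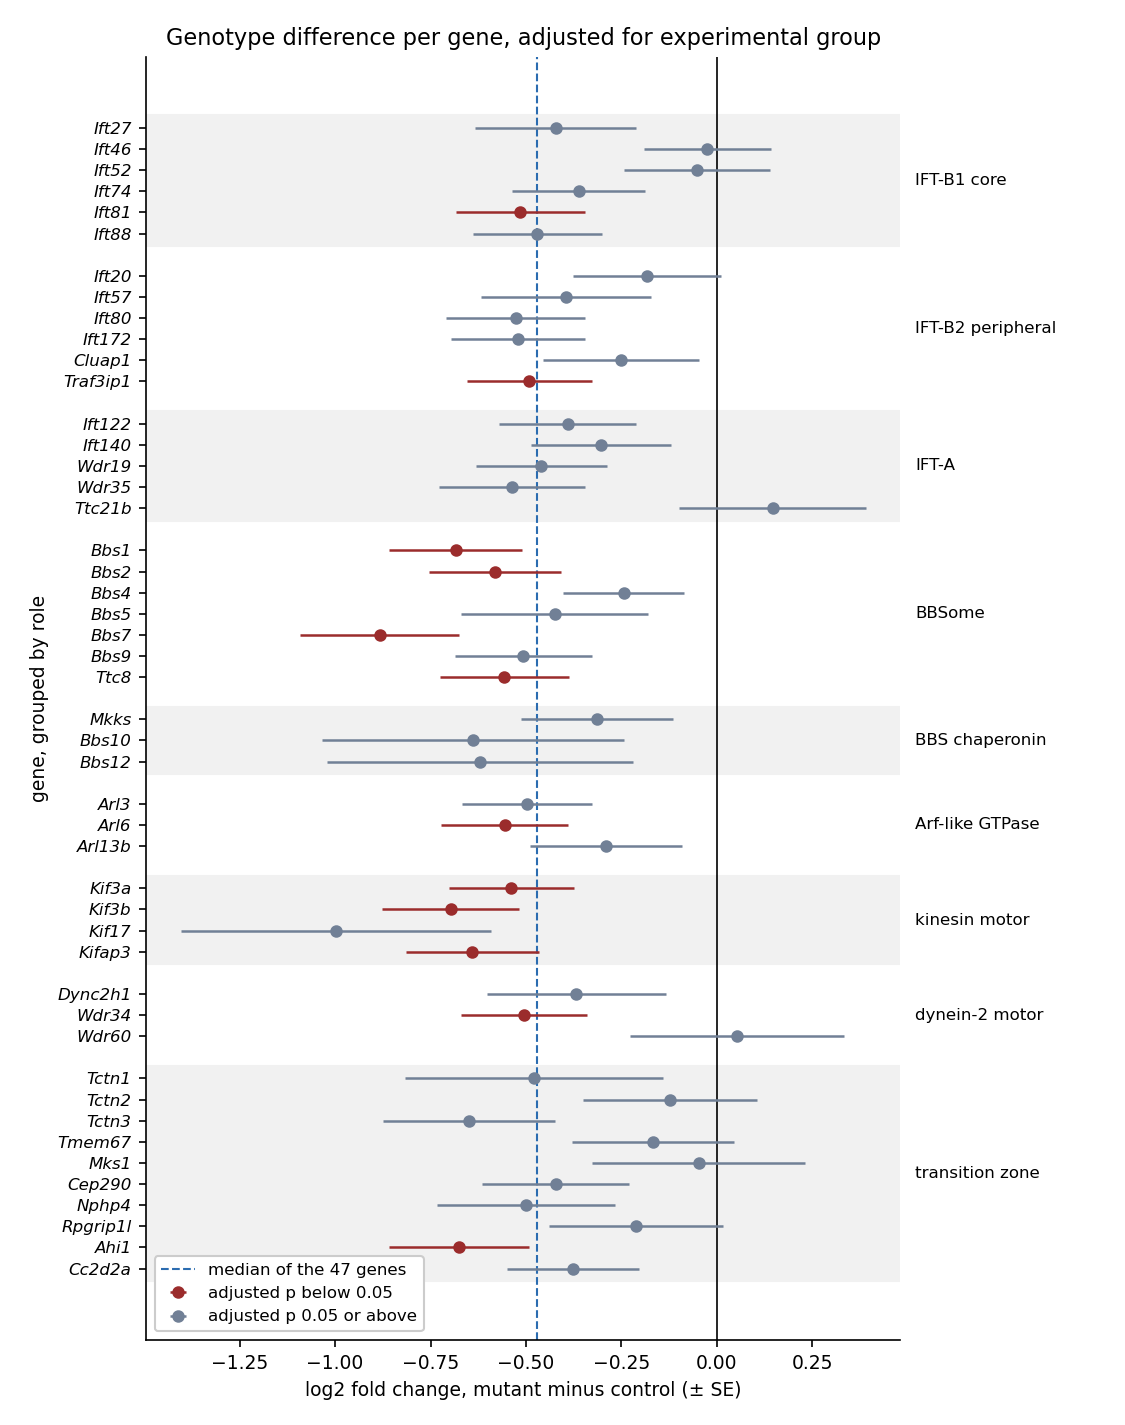
Log2 fold change of each gene, mutant minus control, from the model with experimental group as a term; bars are SE, red marks an adjusted p below 0.05 and the dashed line is the median of the 47 genes. The 12 red points lie between -0.88 and -0.49 and include 4 BBSome and 3 kinesin genes. No IFT-A or chaperonin gene is red, although the chaperonin median (-0.62) is lower than the BBSome median (-0.56).

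IFT-B, the train that carries cargo outward, was represented by 12 genes in its core and peripheral parts, of which 2 were called lower. All 12 had a negative fold change. Ift81 (chr5:122550204-122614518, minus strand), whose product binds tubulin together with that of Ift74, measured 72.1 and 111 CPM in the controls and 56.9 and 69.2 CPM in the mutants. The genotypes did not overlap, by a narrow margin between control 1 and mutant 2, and the log2 fold change was -0.51 ± 0.17 (adjusted p = 0.0435). Ift74 itself had a fold change of -0.36 (adjusted p = 0.268). Ift88, a core subunit whose mutation gives short or absent cilia, had a fold change of -0.47 (adjusted p = 0.0806), and Ift27, a small GTPase of the train, one of -0.42 (adjusted p = 0.303). Ift46 measured 91.9 and 63.9 CPM in the controls and 81.0 and 70.3 CPM in the mutants, with no difference that could be seen beyond its error (-0.03 ± 0.17, adjusted p = 0.980). Ift52, its neighbour in the core, was close to it at -0.05 (adjusted p = 0.955).

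In the peripheral part, Traf3ip1 (chr1:91494647-91529307, plus strand), which links the train to microtubules, measured 85.1 and 80.1 CPM in the controls and 63.4 and 54.3 CPM in the mutants. Its genotypes did not overlap, and it lay just inside the threshold (-0.49 ± 0.16, adjusted p = 0.0494). Ift80 measured 125 and 124 CPM in the controls and 95.8 and 77.9 CPM in the mutants and lay just outside it (-0.53 ± 0.18, adjusted p = 0.0628), as did Ift172 at -0.52 (adjusted p = 0.0536). Ift57 (-0.40, adjusted p = 0.391) and Cluap1 (-0.25, adjusted p = 0.641) were further from it. For Cluap1, 40.8% of the exon length overlaps exons of other genes. Ift20, which also has a role at the Golgi, measured 39.2 and 39.2 CPM in the controls and 36.5 and 32.6 CPM in the mutants (-0.18 ± 0.19, adjusted p = 0.749). In all 6 peripheral genes both mutants lay below both controls.

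IFT-A, which is needed for return transport and for the entry of many membrane receptors, held 0 called genes among 5, with 3 lower at an unadjusted p below 0.05 and 0 called by the quasi-likelihood test or DESeq2. Wdr35 measured 110 and 115 CPM in the controls and 89.9 and 66.7 CPM in the mutants (-0.54 ± 0.19, adjusted p = 0.0765). Wdr19 had a fold change of -0.46 (adjusted p = 0.10), Ift122 one of -0.39 (adjusted p = 0.235) and Ift140 one of -0.30 (adjusted p = 0.447). Ttc21b, a peripheral subunit of the same complex, measured 20.5 and 27.1 CPM in the controls and 21.8 and 31.2 CPM in the mutants. Each mutant lay slightly above its own control, by less than the error (0.15 ± 0.24, adjusted p = 0.872). The sixth listed gene, Ift43, has the older symbol 1700019E19Rik, and the row of that name measured 106 and 57.7 CPM in the controls and 80.0 and 48.2 CPM in the mutants (-0.33 ± 0.16, adjusted p = 0.270). It was not counted among the members.

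The transition zone, the gate at the base of the cilium, held 1 called gene of 10. Ahi1 (chr10:20952547-21080429, plus strand), a gene mutated in Joubert syndrome, measured 83.1 and 106 CPM in the controls and 63.7 and 54.2 CPM in the mutants. Its genotypes did not overlap, and the log2 fold change was -0.67 ± 0.18 (adjusted p = 0.00800). Tctn3 had a similar fold change of -0.65 but a wider error (SE 0.22, adjusted p = 0.0663), and the other tectonic genes Tctn1 (-0.48, adjusted p = 0.559) and Tctn2 (-0.12, adjusted p = 0.891) did not pass. Cep290, a large scaffold protein, measured 28.6 and 76.4 CPM in the controls and 25.2 and 48.6 CPM in the mutants (-0.42 ± 0.19, adjusted p = 0.232). Its level differed more between the controls than between a mutant and its own control. Nphp4 (-0.50), Cc2d2a (-0.38), Rpgrip1l (-0.21) and Tmem67 (-0.17) did not pass, with adjusted p from 0.232 to 0.808. Mks1 measured 28.7 and 13.5 CPM in the controls and 24.2 and 15.1 CPM in the mutants (-0.05 ± 0.28, adjusted p = 0.978). For Tctn1, 25.5% of the exon length overlaps exons of other genes.

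Compared per kilobase of exon, levels of the 47 genes in control 1 ran from 1.96 CPM per kb (Tctn1) to 46.6 CPM per kb (Wdr34), with medians of 13.4 in control 1 and 12.5 in control 2. Kifap3, at 35.3 and 33.7 CPM per kb in the controls, and Arl6, at 38.1 and 29.7 CPM per kb, were among the 3 highest in both controls. The 2 lowest in control 1, Tctn1 and Wdr60, were at 1.96 and 2.04 CPM per kb. This order is a description of the levels and was not tested.

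The experimental groups differed in the controls as well. Of the 47 genes, 11 were more than 1.5-fold higher in control 1 than in control 2, and 5 were more than 1.5-fold higher in control 2. Bbs1 was higher in control 1 (153 against 69.3 CPM), whereas Dync2h1, Wdr60 and Cep290 were higher in control 2. For 22 of the 47 genes the gap between the controls on the log2 scale was larger than the genotype difference. The mutants differed between experimental groups in the same direction as the controls for 37 of the 47 genes. These counts were not taken over all tested genes, so they do not set the 47 genes apart. The genes higher in control 2 tended to be longer, with Pearson r = 0.32 and Spearman rho = 0.20 between log2 exon length and log2 ratio over the 47 genes, and r = 0.23 and rho = 0.26 over 15276 tested genes with a length. These correlations are across genes that share libraries and are given as a description.

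The falls were also unequal between experimental groups. The median ratio over the 47 genes was -0.38 in group 1 and -0.57 in group 2, and 31 of the 47 ratios were lower in group 2, against 7769 of 15438 among all tested genes. Kinesin genes had nearly equal medians (-0.64 and -0.62), as had the chaperonins (-0.61 and -0.57). Transition zone genes had medians of -0.26 and -0.51, and dynein genes of 0.15 and -0.62. The 12 called genes had log2 ratios from -0.82 (Kif3b) to -0.34 (Ift81) in group 1 and, without the library mutant 1, from -1.15 (Bbs7) to -0.41 (Kif3a) in group 2. In 8 genes the ratios had opposite signs. With 1 mutant and 1 control in each experimental group this difference could not be tested.

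**Figure D3:**
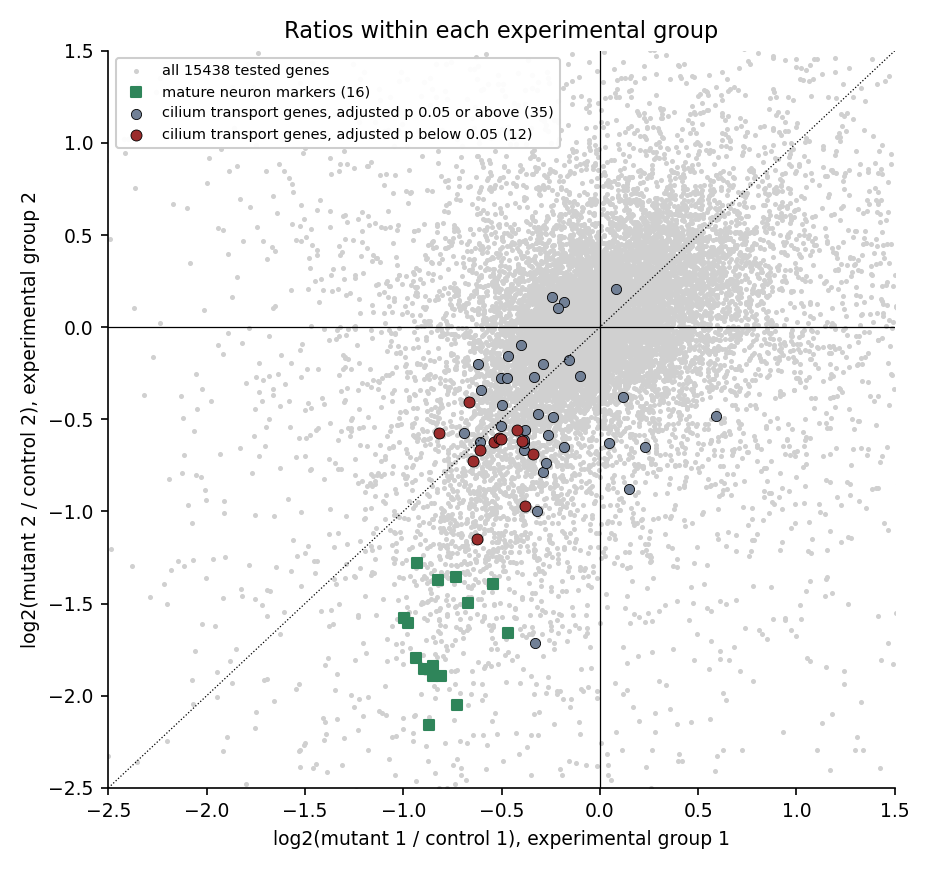
Log2 ratio of mutant to control in group 1 (horizontal) against group 2 (vertical) for the 47 genes, coloured by adjusted p, for 16 mature neuron markers (green squares) and for all tested genes (grey). Points beyond the axes are not shown, among them the marker Kcnmb3 (-2.58 in group 2). The 12 red points all lie in the lower left, nearer to 0 than the green squares in group 2, and the dotted line marks equal ratios.

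Lists of other cell and cilium genes moved in both directions. All 16 mature neuron markers were lower by the likelihood-ratio test, 15 by the quasi-likelihood test and 11 by DESeq2. Their median fold change was -1.32 on the log2 scale, and the medians within group 1 and group 2 were -0.84 and -1.73. Their summed level was 9056 to 20074 CPM in the controls and 2691 to 11102 CPM in the mutants, and mutant 1 lay above control 2. No marker in this list had a count of 0 in any sample. Omp, the marker of mature olfactory neurons, measured 9665 and 3267 CPM in the controls and 5359 and 912 CPM in the mutants (-1.35 ± 0.35, adjusted p = 0.00714, or 0.0605 by DESeq2). Of 12 signalling proteins of the olfactory cilium, most of which are also in the neuron list, 11 were lower with a median of -1.29, against 12 by the quasi-likelihood test and 7 by DESeq2. Adcy3, the adenylyl cyclase of the cilium membrane, measured 1745 and 667 CPM in the controls and 874 and 223 CPM in the mutants (-1.29 ± 0.28, adjusted p = 5.83e-04). No IFT, BBSome, motor or transition zone gene listed here had a fold change as low as the median of either list, the lowest being Kif17.

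Multiciliated cells belong to the neighbouring respiratory epithelium and bear motile cilia. Of 22 genes listed as their markers, 7 were lower (6 by the quasi-likelihood test, 5 by DESeq2), with a median of -0.71. Which of the sorted cells gave these RNAs was not tested. The 22 genes summed to 859 to 1140 CPM in the controls and 433 to 877 CPM in the mutants. Their genotypes overlapped in this sum, and none of them had a count of 0 in any sample. Of the 22 fold changes, 20 were negative and 2 positive (Dnahc5 at 0.18, Spag6 at 0.04), and Hydin was at -0.01. Foxj1, the main regulator of motile cilia, measured 166 and 112 CPM in the controls and 121 and 49.9 CPM in the mutants (-0.80 ± 0.21, adjusted p = 0.00458). Immature neuron markers were lower in 2 of 16 (Dcx, Stmn4), with a median of -0.30, and in 3 by each of the other tests. Progenitor markers had a median of 0.45, and 2 of 10 were higher (Kit, Hes6), with 2 by the quasi-likelihood test and 3 by DESeq2. Horizontal basal cell markers had a median of 0.43, and 2 of 9 were higher (Krt15, Egfr). The quasi-likelihood test called 1 of them higher, and DESeq2 called 6, adding Krt5, Krt14, Trp63 and Itgb4. Of 10 sustentacular cell markers, the likelihood-ratio test called 0 (1 higher and 0 lower at an unadjusted p below 0.05), the quasi-likelihood test 1 higher (Cbr2) and DESeq2 2 higher (Cbr2, Cyp2g1). Cells of both neuronal stages and multiciliated cells use IFT and the BBSome, and the part of any change in their number in these falls was not tested.

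**Figure D4:**
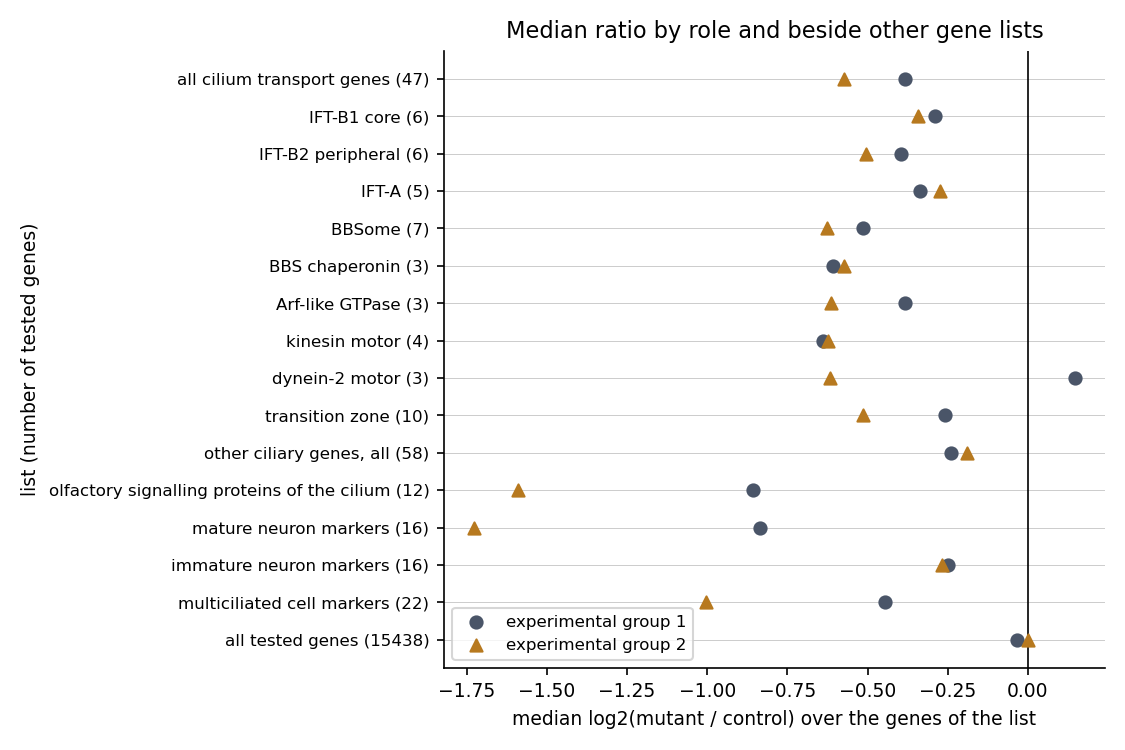
Median log2 ratio of mutant to control over the genes of each role and of other lists, by experimental group; the number of tested genes is in parentheses. The 47 genes (-0.38 and -0.57) lie between the other ciliary genes (-0.24 and -0.19) and the mature neuron markers (-0.84 and -1.73), and the dynein genes are on opposite sides of 0.

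A further 60 genes of the cilium that are not members were listed, and 58 were tested. By the likelihood-ratio test 5 (8.62%) were lower and 0 higher, against 4.30% lower and 1.28% higher among all tested genes. At an unadjusted p below 0.05, 9 were lower and 1 higher, against 9.62% and 6.32% of all tested genes. Their median was -0.22. The quasi-likelihood test called 1 of them lower (Crocc), and DESeq2 called 1 lower (Rp2h). Of other IFT and BBSome genes 1 of 10 was lower, Ccdc28b, which modifies the severity of Bardet-Biedl syndrome (-0.70 ± 0.20, adjusted p = 0.0144). Transition zone and basal body genes were lower in 2 of 29, namely Tmem231, a transition zone membrane protein (-0.59, adjusted p = 0.0198), and Crocc, which forms the ciliary rootlet (-0.67, adjusted p = 0.00759). Of genes that target proteins to the ciliary membrane 2 of 14 were lower, Rp2h, the partner of Arl3 (-0.77, adjusted p = 0.0199), and Pde6d, a carrier of lipid-modified cargo that Arl3 unloads (-0.58, adjusted p = 0.0470). None of 5 other motor or kinase genes was called, and 0 had an unadjusted p below 0.05, with 0 called by the quasi-likelihood test or DESeq2.

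RFX transcription factors bind the X-box of ciliary gene promoters. Rfx3 measured 137 and 229 CPM in the controls and 129 and 117 CPM in the mutants, without passing (-0.53 ± 0.23, adjusted p = 0.219). Rfx1 (-0.14), Rfx2 (-0.33), Rfx4 (-0.37), Rfx5 (0.01) and Rfx7 (0.25) had adjusted p from 0.701 to 0.998. In a list of 13 RFX and other ciliogenic factors, Foxj1 was the 1 gene called.

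Promoters are shown for Bbs7 and Ahi1, the called genes whose promoter window held this motif. The windows run from 250 bases before to 50 bases after the RefSeq start on GRCm38.p6 and were found for 43 of the 47 genes. The pattern searched was GTTNC, a spacer of 3 to 5 bases, and GNAAC, which reads alike on both strands. It was present in 7 of 43 genes (16.3%), against 2.73% of 27025 genes. They were Bbs7, Ahi1, Ift57, Kif17, Mks1, Tctn1 and Tctn3, and 2 of the 11 called genes with a window were among them, as were 5 of the 32 others. GTTGCC or its reverse complement, which can be part of the longer pattern, was present in 20 of 43 genes (46.5%), against 14.1% of all genes, and in 5 of the 11 called genes. A match is a description of the letters and not a bound site. The stretch of Bbs7 ends where the gene begins in GENCODE, and that of Ahi1 is 30 bases around a match downstream of its start. Capitals mark the matches, 5′ to 3′ on the strand of the gene.
Bbs7, chr3:36613478-36613639, minus strand: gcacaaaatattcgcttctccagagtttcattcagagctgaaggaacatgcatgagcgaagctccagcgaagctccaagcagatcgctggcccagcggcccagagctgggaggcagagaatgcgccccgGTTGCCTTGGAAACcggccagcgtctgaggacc
Ahi1, chr10:20952560-20952589, plus strand: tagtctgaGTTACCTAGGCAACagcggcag
The Bbs7 match covers -121 to -108 and the Ahi1 match 21 to 34, counted from the RefSeq start as 0. Both have a spacer of 4 bases.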

How the data were processed

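Tomato-positive cells of 4 mice were profiled after removal of ribosomal RNA. The authors aligned reads with TopHat2 2.0.7 and Bowtie2 2.0.6 to mm10 and counted them with HTSeq, per the submitters' processing notes and methods, and deposited raw counts per gene symbol. The strand setting of counting and the annotation are not given in the sources used here. Reads that HTSeq set aside (22.1% to 39.4% outside genes, 0.84% to 1.20% ambiguous, of uniquely aligned reads) were left out of library sizes. Alignments that were not unique were left out as well.

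Counts were tested with edgeR 4.0.16 (R 4.3.3): genes above 1 CPM in at least 2 samples, TMM scaling, tagwise dispersions, and a likelihood-ratio test of genotype with experimental group as a block, with 1 residual degree of freedom and Benjamini-Hochberg adjustment over 15438 genes, after the methods of the study. The paper's own fit had larger library totals and tested fewer genes, so its filter, scaling and calls can differ from those here. Fold changes are log2, mutant minus control. The SE comes from the fitted model, and ratios within an experimental group are of log2 CPM with a prior count of 2. DESeq2 1.42.0 and the quasi-likelihood test were alternatives, as were other scalings, filters, thinning, fits without single samples and without the block, and, added after the data were seen, subtraction of an even background from mutant 1. The likelihood-ratio, quasi-likelihood and DESeq2 fits with the block were tested on simulated data, and the other alternatives were not. The series' design text says that each experimental group shared parents, treatment, preparation and sequencing, and the deviations of paired samples from their genotype means correlated with r = 0.52 over all genes and 0.78 over the 47 genes.

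The genes and the comparison lists were chosen with earlier results of these data known. Full values are given for each called gene, for the lowest and highest fold change in each role, and for genes whose ratios had opposite signs and differed by more than 1. The 13 comparison lists were matched by symbol or older symbol. Lengths and positions are from GENCODE M21, promoters from RefSeq.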

Additional observations from a re-analysis of the deposited data

Results flagged for a closer look

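In 8 genes the ratio of mutant to control had opposite signs in the experimental groups, which was not tested because each experimental group has 1 mutant and 1 control. The difference of the log2 ratios, group 2 minus group 1, was -1.07 for Wdr60 (0.59 and -0.48) and -1.03 for Dync2h1 (0.15 and -0.88). It was -0.88 for Rpgrip1l, -0.68 for Arl13b and -0.49 for Tctn2, each positive in group 1 and negative in group 2. It was 0.41 for Mks1, 0.32 for Ift46 and 0.32 for Ift52, each negative in group 1 and positive in group 2. None of the 8 was called in the comparison of genotypes. Among all tested genes, 5758 of 15438 had opposite signs.

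Reads outside genes, which enter no comparison, made up 39.4% of the uniquely aligned reads of mutant 1.

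Leukocyte markers, a list of other cells that a dissociated mucosa can hold, had a median log2 ratio of -1.59 in group 1 and 1.29 in group 2, a difference of 2.88. Of the 16 tested, 15 had opposite signs and 0 were called, with 0 at an unadjusted p below 0.05 and 0 called by the quasi-likelihood test or DESeq2. Their part in the results on the cilium genes was not tested.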

How the results depend on the processing

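The 12 genes called lower became 5 by the quasi-likelihood test, 7 by DESeq2, 5 with library totals alone and 7 with no filter on low counts. They became 0 without the replicate block, where 0 of all genes were called lower, and 0 in each fit that left out 1 sample together with the block (range 0 to 0), where the lone sample of a genotype is assumed to vary like the other genotype. Other scalings and filters left 9 to 15, and even background subtraction from mutant 1 left 9. Those 9 were among the 12. No alternative called a member higher. The 5 other ciliary genes called lower became 1 by the quasi-likelihood test, 1 by DESeq2, 2 with library totals alone, 0 without the replicate block and 0 to 0 in the fits without 1 sample. The median of the 47 genes ran from -0.58 to -0.29 when a sample or an experimental group was left out (-0.29 without mutant 2) and from -0.48 to -0.41 under the other alternatives.

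Some directions changed. Without the block, Wdr60 was at -0.0752, and thinned to the smallest library at -0.0206. With library totals alone, Ift46 was at 0.0335, Ift52 at 0.0051 and Mks1 at 0.0122. With no filter Ift46 was at 0.0009, and with the background subtracted at 0.0096. In the fits or ratios that left out a sample or an experimental group, 18 genes changed sign. Values ran for Ift27 from -1.23 to 0.53, Ift46 from -0.24 to 0.25, Ift52 from -0.33 to 0.23, Ift122 from -0.84 to 0.15, Ift140 from -0.64 to 0.0641 and Ttc21b from -0.10 to 0.41. The range was for Bbs1 from -1.42 to 0.0257, Arl13b from -0.63 to 0.0445, Kif17 from -2.12 to 0.0024, Dync2h1 from -0.9965 to 0.32, Wdr34 from -1.16 to 0.0786 and Wdr60 from -0.57 to 0.73. It was for Tctn2 from -0.69 to 0.41, Tmem67 from -0.31 to 0.0347, Mks1 from -0.50 to 0.56, Cep290 from -1.05 to 0.41, Nphp4 from -1.08 to 0.0274 and Rpgrip1l from -0.65 to 0.26. The fits without 1 sample have no block. Over all 21975 genes of the unfiltered fit the median fold change was 0.14. With 2 samples per genotype and 1 residual degree of freedom, the error rests on dispersion shared across genes. The 47 genes had 53 to 4088 counts per sample, the lowest in Kif17.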
